A study of Mus musculus with 9 samples.

Results

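The circadian clock genes Arntl, Clock, Npas2, Per1, Per2, Per3, Cry1, Nr1d1, Dbp and Tef were followed across 9 single-colour Agilent liver arrays. They were taken as every non-control probe whose gene name was one of the 10, which gave 20 of the 41174 gene probes on the array. For 8 of the 10 genes a probe was detected, that is, clearly brighter than its background on each array of some group, and these 8 are among the 16802 genes tested. Npas2 and Per3 did not reach that level. All livers came from male C57BL/6 mice aged 3 months and are named in the sample titles as lobe A. The AAV-hGRβ group (replicates 1, 2 and 3) had received an adeno-associated virus (AAV) for the human glucocorticoid receptor β isoform, hGRβ. The AAV-GFP group (replicates 1, 2 and 3) had received the virus for green fluorescent protein, and the untreated group (replicates 2, 3 and 4) is labelled wild-type liver. The promoter and dose of the virus, the time after its delivery and the hour at which livers were collected are not given in the sources used here. The labels do not say that replicates are separate animals, so each p-value measures only the spread between these samples, which may be technical. AAV-hGRβ against AAV-GFP is the comparison for hGRβ itself, since both carry the virus. AAV-GFP against untreated liver is the comparison for the virus and GFP, though these groups shared no slide.

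The clock of a liver cell is a feedback loop of transcription. ARNTL (also called BMAL1) pairs with CLOCK or NPAS2 and switches on genes that carry an E-box, among them the Per and Cry genes, Nr1d1, Dbp and Tef. PER and CRY proteins then return to the nucleus and repress that pair, while NR1D1 represses Arntl through ROR elements. DBP and TEF are PAR bZIP factors that drive output genes through D-box elements. In mouse liver Arntl peaks around the end of the night, when Dbp is low, and Dbp, Tef and Nr1d1 peak in the daytime, when Arntl falls to its trough. Per1 is also switched on directly by glucocorticoids through the α isoform of their receptor, which the β isoform is known to oppose in cultured cells.

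RefSeq promoter windows on build GRCm38.p6, from 250 bases before to 50 bases after a gene start, were at hand for 9 of the 10 genes (14 windows). Per2 was not among them. The stretches printed here are those that carry, on either strand, the letters through which these proteins bind DNA, with the matching letters in capitals: the E-box CACGTG, the D-box TTATGTAA or TTATGCAA, and the ROR element ANTNGGTCA. These letters occurred in 5 of the 9 genes.
Per3, D-boxes, chr4:151044806-151044880, minus strand: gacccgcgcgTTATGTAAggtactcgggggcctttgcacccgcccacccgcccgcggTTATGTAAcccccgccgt
Arntl, ROR element, chr7:113207529-113207557, plus strand: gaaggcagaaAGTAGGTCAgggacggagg
Cry1, E-box, chr10:85185099-85185124, minus strand: tgccggtggtCACGTGgggtgcatgc
Per1, E-box, chr11:69098773-69098798, plus strand: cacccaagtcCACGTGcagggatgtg
Per1, D-box, chr11:69098915-69098942, plus strand: gggcctggcaTTATGCAAcccgcctccc
Tef, E-box of one start, chr15:81802536-81802561, plus strand: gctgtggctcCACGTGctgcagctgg
Tef, E-box of another start, chr15:81811266-81811291, plus strand: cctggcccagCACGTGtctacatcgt
The element in Arntl lies just after the gene start and the others lie before it. Over all 32851 windows of this length, 7.15% held CACGTG, 0.938% TTATGTAA, 0.743% TTATGCAA and 2.24% ANTNGGTCA. The windows of Clock, Npas2, Nr1d1 and Dbp held none of these letters, which says nothing of sites outside them.

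Signal is given as log2 of the processed spot intensity relative to the 75th percentile of its array, which stands at 0, and values of different probes are not set against each other. The share of gene spots detected per array ran from 54.0% to 82.0%, and r between replicates from 0.973 to 0.988. Scan dates in the files fell on 2 days, with AAV-hGRβ 1, AAV-GFP 3 and untreated 2 on the second day. The arrays lay on 5 slides, and no slide held both an untreated array and an array of a virus group. Differences of either virus group to untreated liver therefore cannot be told apart from differences between slides. Only AAV-hGRβ 1 and AAV-GFP 3 shared a slide across groups. Of T and NK cell markers, 4 of 10 (Cd8a, Gzma, Gzmb and Nkg7) were higher in AAV-hGRβ than in AAV-GFP liver. The same 4 were higher than in untreated liver. Of all genes, 0.911% and 3.32% passed in these comparisons, in either direction (limma, adjusted p below 0.05). In AAV-hGRβ minus untreated liver 2 of the 10, Cd3e and Cd8b1, had a difference below 0. The mean log2 signal of those 10 genes ran from -1.60 to -0.73 in AAV-hGRβ, from -3.03 to -2.39 in AAV-GFP and from -3.57 to -2.68 in untreated liver. The mean of 5 hepatocyte genes ran from 6.60 to 6.75 in AAV-hGRβ, from 6.86 to 6.97 in AAV-GFP and from 6.76 to 6.98 in untreated liver. All 5 had a difference below 0 in AAV-hGRβ minus AAV-GFP liver, and 0 of them passed there (0.911% of all genes). The part of such cells in the values of the clock genes was not tested. In such bulk samples, fewer cells of a type and less RNA per cell cannot be told apart.

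None of the clock genes differed between any pair of groups after adjustment over all genes tested. In AAV-hGRβ against AAV-GFP liver, 0 of 8 passed an adjusted p of 0.05 (limma with Benjamini-Hochberg adjustment), where 0.911% of all genes passed, and 0 reached an unadjusted p of 0.05. In AAV-GFP against untreated liver, 0 of 8 passed, as did 0% of all genes, and 1 of the 8, Nr1d1, had an unadjusted p below 0.05 (9.86% of all genes). In AAV-hGRβ against untreated liver, 0 of 8 passed against 3.32% of all genes, and 3 of the 8, Dbp, Tef and Nr1d1, had an unadjusted p below 0.05 (25.6% of all genes). The median difference of the 8 genes was -0.11, -0.19 and -0.62 in the order of these comparisons, and that of all genes tested was 0.028, 0.035 and 0.098. The comparisons share groups and are not independent of each other.

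**Figure D1:**
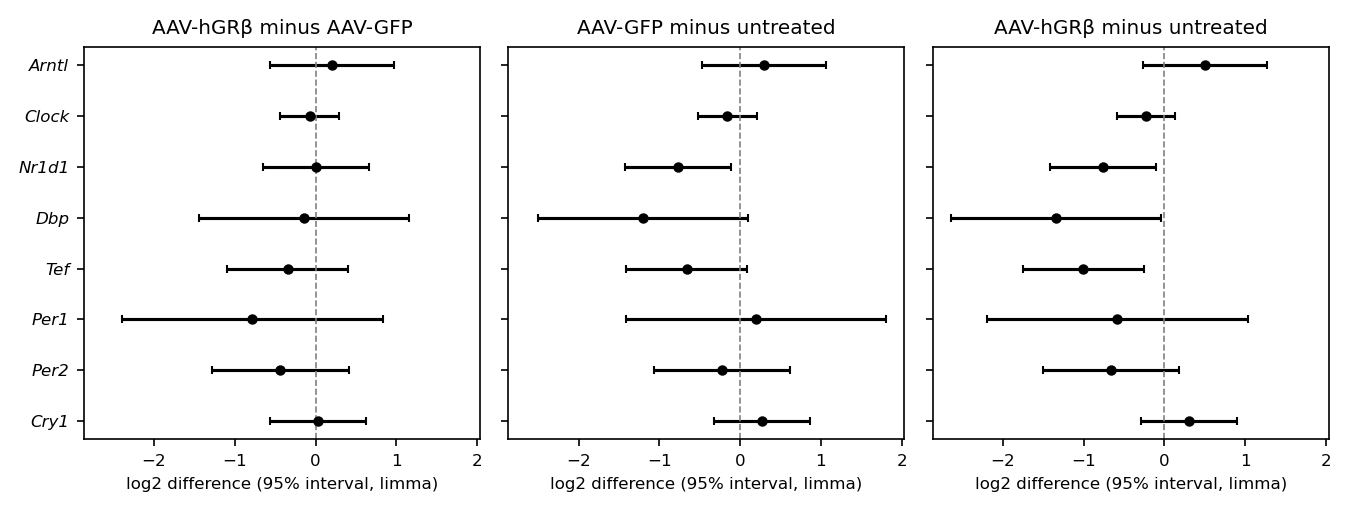
Log2 differences of the 8 tested clock genes (dots) with 95% intervals from limma (bars), for AAV-hGRβ minus AAV-GFP, AAV-GFP minus untreated and AAV-hGRβ minus untreated liver. All 8 intervals of AAV-hGRβ minus AAV-GFP include 0, while those of Dbp, Tef and Nr1d1 lie below 0 in AAV-hGRβ minus untreated liver before adjustment for the number of genes tested.

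Among the activators, Arntl encodes the subunit of the pair that cycles strongly in liver. Its log2 signal was -0.61, -0.28 and 0.0005 in AAV-hGRβ livers, -0.88, -0.14 and -0.47 in AAV-GFP livers, and -0.35, -1.53 and -0.50 in untreated livers. The 3 groups overlapped, and untreated 3 stood lowest by a wide gap. The AAV-hGRβ minus AAV-GFP difference was 0.20 ± 0.34 (SE, n = 3 each; 95% interval -0.57 to 0.97; adjusted p = 0.895, limma), and AAV-hGRβ minus untreated was 0.50 (adjusted p = 0.357). Within the first scan day, with 2 arrays a group, the difference of AAV-hGRβ to untreated liver was 0.88, and between the single arrays of the second day it was -0.26. The Arntl probe, at chromosome 7, bases 109229489 to 109229548 in the build mm7 of the array files, read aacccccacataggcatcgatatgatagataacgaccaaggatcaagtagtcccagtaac.

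Clock, which encodes the partner of ARNTL, varied least of the 8. Its brightest probe read 1.12, 1.35 and 1.28 in AAV-hGRβ livers, 1.17, 1.45 and 1.36 in AAV-GFP livers and 1.49, 1.35 and 1.61 in untreated livers, a 1.40-fold range over the 9 arrays. Its within-group SD of 0.13 lay at percentile 5.73 of all genes tested. AAV-hGRβ livers averaged 1.25 ± 0.12 and AAV-GFP livers 1.33 ± 0.14 (SD, n = 3 each), with a difference of -0.08 whose 95% interval ran from -0.44 to 0.29. Of the other probes of Clock, one followed the brightest over the arrays (r = 0.749) and one did not (r = -0.044), and the fourth was above background on 3 arrays only. The AAV-hGRβ minus AAV-GFP difference was -0.22 on the probe that followed and 0.76 on the one that did not.

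Npas2, the alternative partner of ARNTL, was near the detection limit. Its single probe was well above background on 3 arrays, AAV-hGRβ 1, AAV-GFP 3 and untreated 2, which are the 3 arrays of the second scan day and also those with the largest shares of detected spots. Readings there were -4.42, -3.69 and -4.45, and the 6 other arrays gave -6.72 to -5.31. No group difference was tested for it.

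The repressors were led in variability by Per1, a PER protein gene that responds early to hormones. Per1 stood at -1.25, -2.15 and -1.56 in AAV-hGRβ livers, -0.89, -1.61 and -0.11 in AAV-GFP livers, and -2.78, 0.29 and -0.71 in untreated livers. The untreated arrays alone held both its highest and its lowest value, an 8.40-fold range, and its within-group SD of 1.04 lay at percentile 96.9 of all genes. AAV-hGRβ minus AAV-GFP was -0.78 ± 0.71 (SE, n = 3 each; 95% interval -2.40 to 0.83; adjusted p = 0.765, limma). By scan day, AAV-GFP minus untreated was -1.04 on the first and 2.67 on the second, and AAV-hGRβ minus untreated was -1.64 and 1.53, so the sign turned between days.

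Per2, the second PER repressor, was above background on all 9 arrays with both of its 2 probes, and the brighter one stood for the gene. That probe gave -1.57, -2.50 and -2.17 in AAV-hGRβ livers, -1.19, -2.23 and -1.52 in AAV-GFP livers, and -1.98, -0.89 and -1.39 in untreated livers. The groups overlapped, with untreated 3 highest and AAV-hGRβ 2 lowest. Group means were -2.08 ± 0.47 in AAV-hGRβ, -1.64 ± 0.53 in AAV-GFP and -1.42 ± 0.55 in untreated liver (SD, n = 3 each). The AAV-hGRβ minus AAV-GFP difference was -0.44 (95% interval -1.28 to 0.41; adjusted p = 0.745, limma). The dimmer probe stayed between -2.72 and -2.05 and did not follow the brighter one (r = -0.116 over 9 arrays).

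Per3, the remaining Per gene, was well above background on AAV-hGRβ 1, AAV-hGRβ 3 and AAV-GFP 1 only, where it read -4.00, -3.65 and -4.34. It was not tested. Cry1, the cryptochrome that represses CLOCK and ARNTL directly, read -3.40, -4.16 and -4.08 in AAV-hGRβ livers, -3.76, -3.76 and -4.22 in AAV-GFP livers, and -3.86, -4.43 and -4.28 in untreated livers. The 3 groups overlapped, and the probe fell short of the background limit on 1 array. AAV-hGRβ minus AAV-GFP was 0.03 (95% interval -0.56 to 0.63), a sign that turned under 5 alternatives of background correction, scaling or probe summary. A second Cry1 probe was detected on 6 arrays, 1 of them untreated, and correlated weakly with the first (r = 0.279). Its differences to untreated liver were 1.54 for AAV-GFP and 1.13 for AAV-hGRβ, against 0.27 and 0.31 for the first probe. Its AAV-hGRβ minus AAV-GFP difference was -0.42.

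Nr1d1 encodes REV-ERBα, the nuclear receptor that represses Arntl. Its brightest probe read 0.80, 0.24 and -0.30 in AAV-hGRβ livers, 0.64, 0.03 and 0.05 in AAV-GFP livers, and 0.93, 1.06 and 1.03 in untreated livers. Every array of both virus groups lay below every untreated array, and the virus groups overlapped each other. Of the 8 genes, 1 (Nr1d1) had no overlap between AAV-hGRβ and untreated liver (29.3% of all genes) and 1 (Nr1d1) between AAV-GFP and untreated liver (14.8% of all genes). Between AAV-hGRβ and AAV-GFP liver 0 of the 8 did (15.9% of all genes). Its mean was 0.25 ± 0.55 in AAV-hGRβ, 0.24 ± 0.35 in AAV-GFP and 1.01 ± 0.07 in untreated liver (SD, n = 3 each).

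The difference of Nr1d1 was -0.76 in AAV-hGRβ minus untreated liver (95% interval -1.41 to -0.11; adjusted p = 0.151, limma). It was -0.77 in AAV-GFP minus untreated liver (95% interval -1.42 to -0.11; adjusted p = 0.485). On both scan days the sign was the same, at -1.07 and -0.13 for AAV-hGRβ and at -0.71 and -0.88 for AAV-GFP. Between AAV-hGRβ and AAV-GFP the difference was 0.006 (95% interval -0.65 to 0.66). The probe, listed on chromosome 11 from 98878251 to 98878753 of mm7, a span longer than the probe itself, read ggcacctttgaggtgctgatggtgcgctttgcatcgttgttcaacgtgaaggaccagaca. Of the 2 dimmer Nr1d1 probes, one followed it (r = 0.759) and one did so weakly (r = 0.196). In that order, AAV-hGRβ minus untreated was -0.27 and -0.42, and AAV-GFP minus untreated was -0.53 and -0.80. On both of these probes AAV-hGRβ overlapped untreated liver.

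Among the output factors, Dbp had the widest range of the tested members after Per1. Its log2 signal was 5.90, 4.51 and 4.46 in AAV-hGRβ livers, 6.04, 4.08 and 5.17 in AAV-GFP livers, and 5.62, 6.89 and 6.39 in untreated livers, a 7.04-fold range. AAV-hGRβ 1 and AAV-GFP 1 lay above untreated 2, so the groups overlapped. AAV-hGRβ minus untreated was -1.35 ± 0.57 (SE, n = 3 each; 95% interval -2.65 to -0.05; adjusted p = 0.184, limma), and AAV-GFP minus untreated was -1.21 (adjusted p = 0.485). The first of these was -2.16 within the first scan day and 0.28 on the second. AAV-hGRβ minus AAV-GFP was -0.14 (95% interval -1.44 to 1.16).

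Tef, the relative of Dbp, ran alongside it. Its brightest probe read 2.14, 1.44 and 1.27 in AAV-hGRβ livers, 2.36, 1.53 and 2.01 in AAV-GFP livers, and 2.13, 3.05 and 2.70 in untreated livers. The groups overlapped through untreated 2, which lay below AAV-hGRβ 1 and AAV-GFP 1. AAV-hGRβ minus untreated was -1.01 ± 0.33 (SE, n = 3 each; 95% interval -1.76 to -0.26; adjusted p = 0.117, limma), with -1.52 on the first scan day and 0.016 on the second. Without untreated 2, Tef passed (difference -1.26, adjusted p = 0.0492) in a fit that called 2150 of all genes, against 557 with all arrays. With arrays scaled to their median, Tef (-1.35, adjusted p = 0.0466) and Dbp (-1.69, adjusted p = 0.0474) both passed. That scaling moved the median of all genes by -0.34 in this comparison. A dimmer Tef probe followed the brightest over the arrays (r = 0.770) and another did so weakly (r = 0.298). Their AAV-hGRβ minus untreated differences were -0.30 and 0.10. The values given for Tef here and below are those of its brightest probe.

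**Figure D2:**
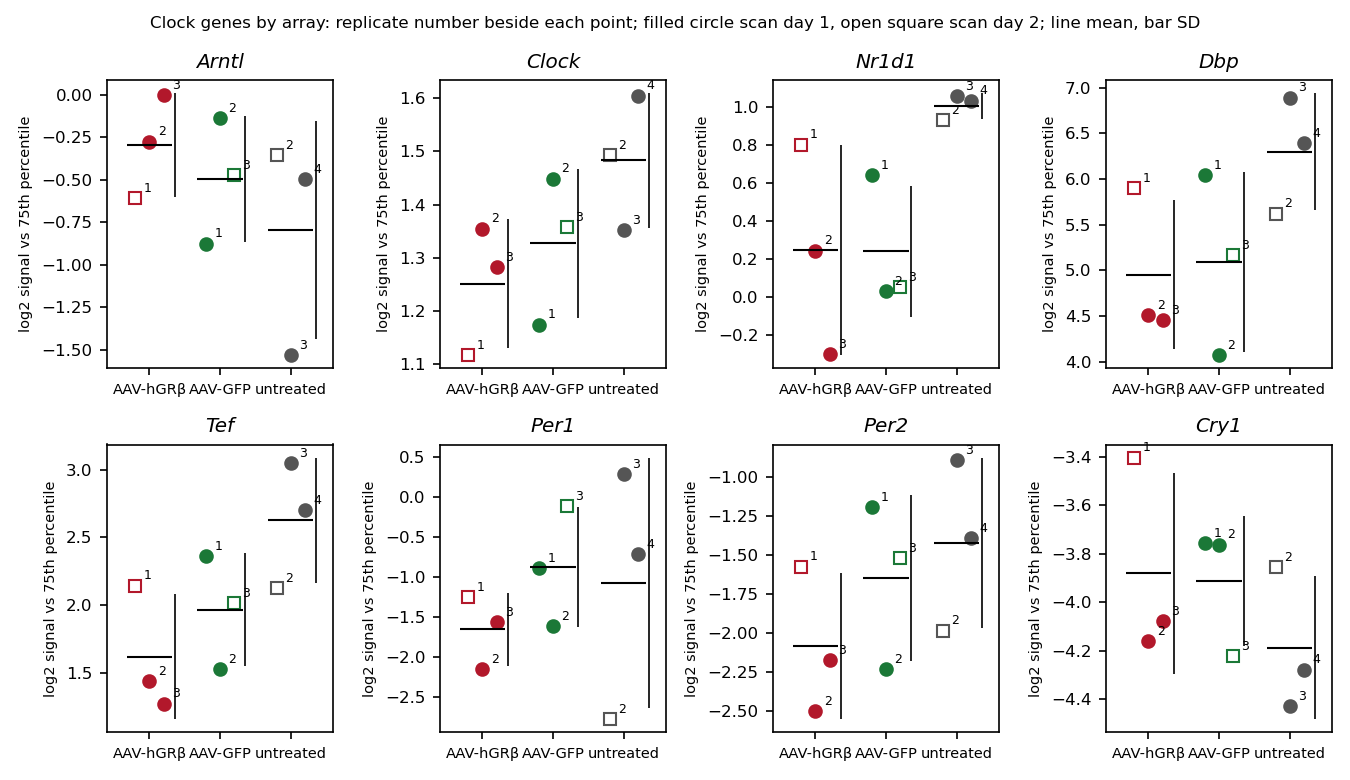
Log2 signal relative to the array's 75th percentile for the 8 tested clock genes on each array, by group, with the replicate number beside each point, filled circles for scan day 1, open squares for scan day 2, a line at the group mean and a bar of 1 SD. The groups overlap for each gene except Nr1d1, where all untreated arrays lie above the arrays of both virus groups.

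The genes also varied from array to array within groups. Untreated 3 had the highest value of Dbp, Tef, Nr1d1, Per1 and Per2 and the lowest of Arntl and Cry1. AAV-GFP 2 and AAV-hGRβ 3 stood at the other end, with low Dbp and high Arntl. Untreated 3 also had the smallest share of detected gene spots (54.0%) and the highest 75th percentile of intensity (627) of the arrays. The difference of Dbp to Arntl within an array, which does not depend on how arrays are scaled, was 6.51, 4.79 and 4.46 in AAV-hGRβ livers, 6.92, 4.21 and 5.64 in AAV-GFP livers, and 5.97, 8.42 and 6.89 in untreated livers. Each group spanned at least 2 log2 units of it, and the groups overlapped.

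Over the 9 arrays Arntl ran opposite to Dbp (Pearson r = -0.840, exact permutation p = 0.00141, two-sided, and 0.0042 after adjustment over the 9 relations of Arntl with the other clock genes). The Spearman rho was -0.917 (adjusted exact p = 0.0059). Without the 2 arrays farthest from the Arntl median, AAV-hGRβ 3 and untreated 3, r was -0.774 (exact p = 0.0387), and within the first scan day it was -0.867 (6 arrays, exact p = 0.0153). The second day holds only 3 arrays and gives no value. Around the group means r was -0.821. With arrays scaled to their median r was -0.587 (exact p = 0.0977), which no longer passed.

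Tef and Per2 ran opposite to Arntl as well. The values given for Per2 here and below are those of its brighter probe, which its other detected probe did not follow (r = -0.116). For Tef r was -0.863 (adjusted exact p = 0.0042) with rho at -0.917, and for Per2 r was -0.866 (adjusted exact p = 0.0042) with rho at -0.883. Within the first scan day r was -0.878 for Tef and -0.880 for Per2. Without the 2 farthest arrays Per2 kept an r of -0.860 (exact p = 0.0111), while Tef had -0.689 (exact p = 0.0819) and so rests in part on those arrays. With arrays scaled to their median neither passed, at r = -0.355 for Tef (exact p = 0.349) and r = -0.439 for Per2 (exact p = 0.237). With normexp background correction Per2 did not pass either (r = -0.246, exact p = 0.524). Dbp, Tef and Per2 ran together, with r of 0.964 between Dbp and Tef, 0.893 between Per2 and Dbp and 0.908 between Per2 and Tef, given as descriptions.

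**Figure D3:**
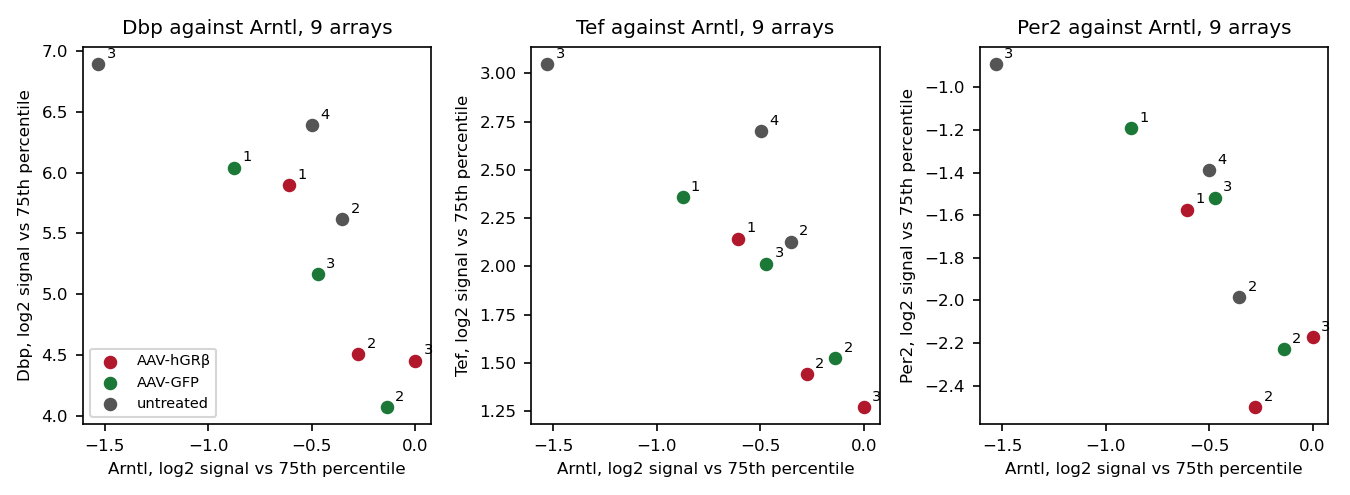
Log2 signal of Dbp, Tef and Per2 (vertical axes) against that of Arntl (horizontal axes), relative to the array's 75th percentile, with 1 point for each of the 9 arrays, coloured by group and marked with its replicate number. The points fall from upper left to lower right, with untreated 3 at the upper left and AAV-GFP 2 and AAV-hGRβ 3 at the lower right.

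Over the 9 arrays the relation of Arntl with the remaining clock genes was looser. For Nr1d1, the repressor of Arntl, r was -0.674 (adjusted exact p = 0.0736) and rho was -0.767 (adjusted exact p = 0.0481), and r was -0.807 within the first scan day. For Per1 r was -0.680 (adjusted exact p = 0.0744), and without the 2 farthest arrays it was -0.485. Clock had an r of 0.207 and Cry1 of 0.264 with Arntl, neither passing. Around the group means, r with Arntl was 0.812 for the brightest probe of Clock and 0.075 for Cry1. It was -0.600 for Nr1d1 and -0.695 for Per1 there, all given as descriptions. Npas2 (0.060) and Per3 (-0.161) were below the background limit on most arrays, so that their r carries little signal. Per1 correlated with Per2 at 0.803, but with Dbp at 0.542 and with Nr1d1 at 0.175.

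Members of one group could differ on the same slide and scan day. AAV-GFP 1 and AAV-GFP 2, hybridised side by side, differed by 1.96 in Dbp (3.90-fold), 1.04 in Per2, 0.83 in Tef and -0.74 in Arntl, each on the log2 scale. Untreated 3 and untreated 4, also on a shared slide, differed by -1.03 in Arntl and 1.00 in Per1, while Nr1d1 differed by 0.02. AAV-hGRβ 2 and AAV-hGRβ 3 shared a slide and were close in Dbp (0.06) but not in Nr1d1 (0.55). The within-group SD of Dbp, 0.83, lay at percentile 93.5 of all genes and that of Arntl, 0.46, at percentile 73.1. The part of collection time in this spread was not tested.

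Further genes of the clock gave no call either. Of 12 listed loop genes outside the 10 members, 10 were tested and 0 passed in any of the 3 comparisons, where 0.911%, 0% and 3.32% of all genes did. At an unadjusted p below 0.05 there were 0 in AAV-hGRβ against AAV-GFP (11.7% of all genes), 0 in AAV-GFP against untreated (9.86%) and 2 in AAV-hGRβ against untreated liver (25.6%). The 3 with the smallest p in AAV-hGRβ minus untreated liver were Hlf, another PAR bZIP factor (-0.79, adjusted p = 0.0909, limma), Rora, an activator of Arntl (-1.06, adjusted p = 0.0966), and Bhlhe40, an E-box repressor (-0.77, adjusted p = 0.213). Without untreated 2, these 3 passed. In AAV-hGRβ minus AAV-GFP liver the smallest p fell to Timeless, whose relative is a clock gene in the fly (0.70, adjusted p = 0.466). Of 10 kinases and ubiquitin pathway genes that act on clock proteins, all were tested and 0 passed in any comparison, with 0, 2 and 2 at an unadjusted p below 0.05 in the same order, against those same shares of all genes. The smallest p in AAV-hGRβ minus untreated liver was that of Fbxw7, an F-box protein gene (-0.64, adjusted p = 0.112), and Csnk1d, a kinase of PER proteins, followed (-0.46, adjusted p = 0.147).

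Usp2, a deubiquitinase gene controlled by the clock, had the widest range of these 10. It read -1.23, -3.24 and -1.65 in AAV-hGRβ livers, -0.96, -2.81 and -1.43 in AAV-GFP livers, and -2.51, 0.71 and -0.34 in untreated livers. As for Dbp, untreated 3 was highest. Its AAV-hGRβ minus untreated difference of -1.33 did not pass (adjusted p = 0.336, limma).

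**Figure D4:**
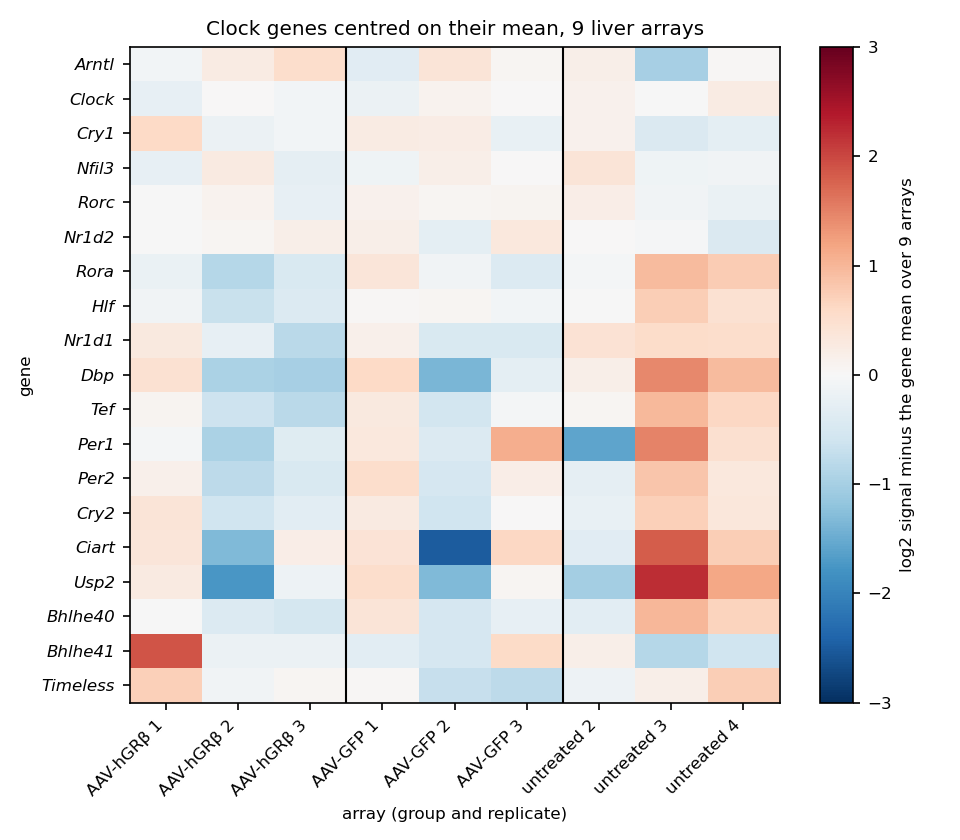
Log2 signal of 19 tested clock genes (rows) on the 9 arrays (columns, in the order AAV-hGRβ, AAV-GFP, untreated), each centred on its mean over the arrays, with red above and blue below that mean. Dbp, Tef, Per1, Per2, Usp2 and Bhlhe40 are highest in the column of untreated 3, where Arntl is lowest.

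Output genes that liver clocks drive gave 1 call. Of 15 listed, 14 were tested, with differences from -1.03 to 1.09 in AAV-hGRβ minus untreated liver. In AAV-hGRβ against untreated liver 1 passed (3.32% of all genes), Nampt, which encodes an enzyme that recycles NAD, and 4 had an unadjusted p below 0.05 (25.6% of all genes). Nampt read 2.85, 3.38 and 3.42 in AAV-hGRβ livers, 2.64, 2.48 and 2.65 in AAV-GFP livers, and 2.43, 2.39 and 2.11 in untreated livers, so that the AAV-hGRβ arrays lay above all others. AAV-hGRβ did not overlap untreated liver for 5 of the 14 genes (29.3% of all genes). It did not overlap AAV-GFP liver for 3 of them (15.9% of all genes). Nampt rose by 0.91 ± 0.20 in AAV-hGRβ against untreated liver (SE, n = 3 each, adjusted p = 0.0472, limma), with 1.15 on the first scan day and 0.41 on the second. The call was lost with 7 of the 9 arrays left out in turn (adjusted p up to 0.198, difference 0.80 to 1.09). It was also lost under 7 of 11 other alternatives (difference 0.56 to 1.19, adjusted p up to 0.339). In AAV-hGRβ against AAV-GFP liver 0 of the 14 passed and Nampt differed by 0.63 (adjusted p = 0.244), and in AAV-GFP against untreated liver 0 passed. The unadjusted counts were 2 (11.7% of all genes) and 0 (9.86% of all genes).

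By likeness over the 9 arrays, among 7011 named genes that ranged over at least 1 log2 unit, the genes closest to Arntl were Prim1, a DNA primase subunit (r = 0.932), Sla2 (0.907), Adam28 (0.903) and Spin4 (0.867). Those most opposed to it were Tex47 (-0.917), Slc5a6, a vitamin transporter gene (-0.910), Vps8 (-0.900), Ptpn23 (-0.875) and Bhlhe40 (-0.874). Prim1 read 1.07, 1.42 and 1.61 in AAV-hGRβ livers, 0.23, 1.21 and 1.01 in AAV-GFP livers, and 0.89, -0.36 and 0.52 in untreated livers, with untreated 3 lowest as for Arntl. All these points share arrays and their scaling, and the genes were picked for their r. Several were dim: Sla2 ran from -4.46 to -2.53, Adam28 from -4.74 to -2.26 and Spin4 from -5.96 to -3.93. Tex47 ran from -4.50 to -3.18 and Vps8 from -4.24 to -2.19. Sla2, Adam28 and Spin4 were lowest on untreated 3, the array with the smallest share of detected spots (54.0%). The part of background in these r was not tested.

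The genes closest to Per1 by the same measure were Klf15, a zinc finger factor of fasting metabolism (r = 0.926), Noct, the deadenylase-like nocturnin gene (0.915), Pfkfb3, an enzyme of glycolytic control (0.887), Ston1 (0.830) and Usp2 (0.827). Those most opposed were Osgin1 (-0.842), Col12a1, a collagen gene (-0.808), Samt2b (-0.788), Id2, an inhibitor of helix-loop-helix factors (-0.787), and Hilpda, a lipid droplet protein gene (-0.786). Noct read -0.78, -1.45 and -0.58 in AAV-hGRβ livers, 0.22, 0.10 and 0.57 in AAV-GFP livers, and -1.85, 0.86 and -0.20 in untreated livers. Its order over the untreated arrays was that of Per1, with untreated 2 lowest and untreated 3 highest. These genes too were picked for their r over the same arrays, so a shared order is part of that choice. Ston1 (-5.38 to -2.54), Samt2b (-4.60 to -2.21) and Col12a1 (-4.53 to -2.15) were dim.

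Glucocorticoid-induced genes were read beside Per1, which shares that control. Of 9 listed, 8 were tested, and 1 of them, Tat, tyrosine aminotransferase, passed in 1 comparison, AAV-hGRβ against untreated liver (3.32% of all genes). Tat read 5.93, 5.26 and 5.75 in AAV-hGRβ livers, 6.82, 6.82 and 6.60 in AAV-GFP livers, and 6.37, 7.23 and 7.17 in untreated livers. AAV-hGRβ did not overlap untreated liver, as for 3 of the 8 genes (29.3% of all genes). Nor did it overlap AAV-GFP liver, as for 1 of the 8 (15.9% of all genes). On the second scan day the single arrays read 5.93 (AAV-hGRβ 1) and 6.37 (untreated 2). On the first day AAV-hGRβ arrays read 5.26 and 5.75 and untreated arrays 7.23 and 7.17. Tat fell by 1.28 in AAV-hGRβ against untreated liver (SE 0.27, n = 3 each, adjusted p = 0.0441, limma). The call was lost with 8 of the 9 arrays left out in turn (difference -1.56 to -1.08, adjusted p up to 0.179). It was also lost under 6 of 11 other alternatives (difference -1.62 to -0.70, adjusted p up to 0.725). Its AAV-hGRβ minus AAV-GFP difference was -1.10 (adjusted p = 0.132). The mean log2 signal of the 8 genes was 3.01 on AAV-GFP 3 and between 1.63 and 2.19 on the other arrays. Per1 on AAV-GFP 3, at -0.11, was the highest Per1 value outside untreated 3, and the part of hormone level in Per1 was not tested.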

How the data were processed

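Liver RNA was hybridised to single-colour Agilent arrays, 3 for each of 3 groups, from 500 ng of total RNA per the labels' protocols. Spot intensity was deposited on a linear scale, with background and spatial trend removed within each array per the file headers, and the submitters' processing notes name Agilent Feature Extraction 9.5. The deposited series table holds the same intensity (largest absolute difference 0). Scaling between arrays is not given in the sources used here.

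From these, log2 values relative to each array's 75th percentile were computed here, without control and outlier spots. The 24289 probes marked above background on each array of some group were kept, and the brightest stood for its gene. No clock probe was saturated. Names came from the files (8161 of 41174 probes) or from RefSeq GRCm38.p6. Groups were compared in 1 fit of the 9 arrays with limma 3.58.1 in R 4.3.3, with 6 residual degrees of freedom, two-sided, with Benjamini-Hochberg adjustment over 16802 genes. The fit was tested on simulated data. Correlations were tested over all pairings of arrays (SciPy 1.17.1). The number of arrays limits the precision.

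The clock genes and all gene lists were chosen with earlier results of these data known. Named were all members, called genes of each list and otherwise up to 3 with the smallest p, and the 5 genes most and least like Arntl and Per1, of which 1 is not reported here. The alternatives were background correction, scaling, filter, probe summary, scan day, slide, replicate number, groups in the fit and each array left out. Those for Nampt and Tat and for the correlations of Tef and Per2 were chosen after seeing the data.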

Additional observations from a re-analysis of the deposited data

How the results depend on the processing

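The count of clock genes that passed stayed at 0 in AAV-hGRβ against AAV-GFP and in AAV-GFP against untreated liver under every alternative run. In AAV-hGRβ against untreated liver it was 2 with arrays scaled to their median (Dbp and Tef) and 0 to 1 with single arrays left out (Tef, without untreated 2), and 0 otherwise. The count among the other loop genes there was 1 with median scaling (Rora) and 0 to 3 with single arrays left out (Bhlhe40, Hlf and Rora, without untreated 2). The cause was not tested. The r of Arntl with Dbp was -0.587 (exact p = 0.0977) with median scaling, where the gap between an array's median and its 75th percentile spans 0.96 log2 units over the arrays, and ran from -0.913 to -0.804 with single arrays left out. Median scaling also ended the calls of Arntl with Tef (r = -0.355) and with Per2 (r = -0.439), and normexp that with Per2 (r = -0.246), while single left-out arrays kept them. The calls of Nampt and Tat were lost under 7 and 6 of 11 processing alternatives and kept their sign in all. Over all genes the count of calls in AAV-hGRβ against untreated liver ran from 1 (replicate block) to 2150 (without untreated 2), against 557 in the reported fit, and in AAV-hGRβ against AAV-GFP from 2 (replicate block) to 260 (scan day as a block), against 153. With slide as a random block, 58 genes were called in AAV-hGRβ against untreated liver. The smallest adjusted p of the clock genes there was 0.468, against 0.117 in the reported fit (limma).

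Arrays of the same replicate number deviated from their group means with r from -0.323 to 0.242 over 7 pairs. For arrays of unlike number r ran from -0.451 to 0.570 over 20 pairs. Pairs of both kinds include arrays of different scan days, so these values cannot decide whether the numbers pair the samples. With the number as a replicate block, 0 clock genes and 0 other loop genes passed in each comparison.

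Small differences turned sign. In AAV-hGRβ minus AAV-GFP liver, median scaling gave -0.14 for Arntl, -0.31 for Cry1 and -0.34 for Nr1d1, moving all genes by -0.34. Normexp background correction gave 0.32 for Clock, -0.999 for Cry1, 0.57 for Dbp and 0.13 for Tef. Bright local backgrounds replaced before it gave -0.10 for Cry1, quantile normalization -0.37 for Cry1, the mean of probes 0.16 for Clock and -0.19 for Cry1, and the slide as a random block 0.18 for Dbp. In AAV-GFP minus untreated liver, normexp gave -0.25 for Per1 and 0.029 for Per2. In AAV-hGRβ minus untreated liver, normexp gave 0.13 for Clock and -0.71 for Cry1, quantile normalization -0.29 for Cry1 and median scaling -0.0345 for Cry1.

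With single arrays left out, AAV-hGRβ minus AAV-GFP ran from -0.21 to 0.17 for Cry1, from -0.27 to 0.28 for Nr1d1 and from -0.65 to 0.33 for Dbp. AAV-GFP minus untreated ran from -0.070 to 0.52 for Arntl, from -0.66 to 0.88 for Per1 and from -0.51 to 0.067 for Per2. AAV-hGRβ minus untreated ran from -1.44 to 0.093 for Per1. Signal over background kept Npas2 and Per3 out of the reported fit.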

Other observations

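Heat and cold response genes, some of which follow the body temperature rhythm in mouse liver, gave no call. Of 9 listed, 8 were tested and 0 passed in any comparison (limma), with 0 at an unadjusted p below 0.05 in AAV-hGRβ against AAV-GFP (11.7% of all genes), 1 in AAV-GFP against untreated (9.86%) and 2 in AAV-hGRβ against untreated liver (25.6%). Rbm3, a cold-induced RNA-binding protein gene, differed by 0.62 in AAV-hGRβ minus AAV-GFP liver (adjusted p = 0.581) and by 1.01 in AAV-hGRβ minus untreated liver (adjusted p = 0.137). Hsp90aa1, a heat shock chaperone gene, differed by 0.65 in AAV-hGRβ minus untreated liver (adjusted p = 0.129) and by 0.51 in AAV-GFP minus untreated liver (adjusted p = 0.485).

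Of the 6 Kupffer cell and macrophage markers, 1 passed in AAV-hGRβ against untreated liver (3.32% of all genes), Clec4f, a Kupffer cell lectin gene. It rose by 1.17 there (adjusted p = 0.0358, limma). In AAV-hGRβ against AAV-GFP liver 0 of the 6 passed (0.911% of all genes), with a smallest adjusted p of 0.241 (limma). In AAV-GFP against untreated liver 0 of the 6 passed (0% of all genes). Markers of B cells, endothelial cells, stellate cells and cholangiocytes gave 0 calls in each of the 3 comparisons, against those same shares of all genes.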
